A study of Mus musculus with 16 samples.

Results

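The S phase genes described here are 41 mouse genes from the list commonly used to score the DNA synthesis phase of the cell cycle, taken by symbol. All 41 were found among the 32989 identifiers of the count table, and all 41 were among the 19049 genes that were tested, those whose counts averaged 5 or more over the libraries. Hair follicle stem cell (HFSC) organoids of C57BL/6J mice were cultured for 2 weeks and were either left untreated or given the acetylated polyamine N1-acetylspermidine (N1-AcSpd) for 72 h. Fluorescence-activated sorting then separated α6+/CD34− progenitors from α6+/CD34+ HFSCs, where α6 is an integrin of basal keratinocytes and CD34 a surface marker of the hair follicle bulge. Cultures of 4 mice each gave 1 RNA library to each of the 4 groups (untreated progenitors, untreated HFSCs, N1-AcSpd progenitors and N1-AcSpd HFSCs), so that the 16 libraries hold 4 biological replicates per group. No group carries a genetic change by the labels, and progenitors and HFSCs had grown together in the same organoids until the sort.

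Before S phase, the origin recognition complex, CDC6 and CDT1 load the ring of MCM proteins onto DNA. The ring becomes an active helicase once CDC45 and the GINS complex join it, and DNA polymerase α with primase then starts each new strand. The sliding clamp PCNA and its loaders keep the later polymerases on the template, while ribonucleotide reductase and thymidylate synthase supply the building blocks. Many of these genes are known targets of the E2F transcription factors, which become active when a cell commits to divide. In resting skin, bulge stem cells are known to divide rarely, whereas organoid cultures grow. The comparisons ask what separates HFSCs from progenitors in S phase genes, and whether N1-AcSpd changes these genes in either population.

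Upstream promoter bases are shown first, because most members rose together between the cell populations while a few fell. They are the 250 bases before the RefSeq gene start on GRCm38.p6, and 31 of the 41 members had an entry. In these bases 10 of the 31 held at least 1 E2F-type word, which means TTTCCCGC, TTTGGCGC, TTTCGCGC or TTTGCCGC on either strand. The same words stood before 2.16% of all 27025 genes with an entry of this length. The short word CCAAT, on either strand, stood in 21 of the 31 and before 37.5% of all genes. An E2F-type word was found in 7 of the 22 members with an entry that were called higher in HFSCs in at least 1 condition, in 1 of the 2 that were called lower and in 2 of the 7 that were not called. Sequences are given for 3 members that were higher in HFSCs and hold such a word (Mcm5, Mcm6 and Dtl), and for Pola1, which was lower and holds one as well. Capitals mark E2F-type words and CCAAT on either strand, and in Mcm5 and Mcm6 a pair of E2F-type words on opposite strands overlap. Mcm5 was read from chr8:75109259-75109508 (+), Mcm6 from chr1:128359706-128359955 (-), Dtl from chr1:191575545-191575794 (-) and Pola1 from chrX:93632156-93632405 (-), each 5′ to 3′ towards its gene. A word match is a description of these bases, not evidence that a factor binds there.
Mcm5: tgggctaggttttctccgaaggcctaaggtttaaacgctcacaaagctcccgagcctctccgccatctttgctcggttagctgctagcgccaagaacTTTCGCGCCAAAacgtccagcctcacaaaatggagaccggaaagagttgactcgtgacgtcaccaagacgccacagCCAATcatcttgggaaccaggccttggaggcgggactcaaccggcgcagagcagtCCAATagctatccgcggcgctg
Mcm6: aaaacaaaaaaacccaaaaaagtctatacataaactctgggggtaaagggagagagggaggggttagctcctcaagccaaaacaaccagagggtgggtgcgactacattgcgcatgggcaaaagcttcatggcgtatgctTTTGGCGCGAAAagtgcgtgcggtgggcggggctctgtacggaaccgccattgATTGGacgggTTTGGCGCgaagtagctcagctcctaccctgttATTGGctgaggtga
Dtl: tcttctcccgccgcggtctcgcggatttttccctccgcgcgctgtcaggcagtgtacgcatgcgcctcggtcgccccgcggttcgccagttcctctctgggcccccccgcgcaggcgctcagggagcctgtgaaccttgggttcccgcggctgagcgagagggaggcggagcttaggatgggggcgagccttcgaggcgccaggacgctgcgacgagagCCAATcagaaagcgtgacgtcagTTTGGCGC
Pola1: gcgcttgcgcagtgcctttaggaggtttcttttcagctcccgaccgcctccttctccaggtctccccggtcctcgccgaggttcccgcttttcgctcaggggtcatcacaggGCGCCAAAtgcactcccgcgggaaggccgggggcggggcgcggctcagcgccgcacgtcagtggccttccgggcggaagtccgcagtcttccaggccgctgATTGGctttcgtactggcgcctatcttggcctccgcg

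Library totals ran from 15480075 to 29074855 unique molecular identifiers (UMIs), which count each captured RNA molecule once, and the mean count of a member over the 16 libraries ran from 52.9 to 2381. Levels are given as CPM, counts scaled to a common total after TMM adjustment of the library totals. The marker levels in this paragraph are the exception, as they were scaled to library totals without TMM adjustment. The sort marker Cd34 stood between 2.79 and 3.50 CPM in progenitors and between 44.4 and 66.95 CPM in HFSCs, and Krt14, a marker of basal keratinocytes, between 4705 and 5474 CPM in all libraries. All 8 differentiation markers listed (Krt1, Krt10, Krtdap, Ivl, Lor, Sbsn, Dsg1a and Flg) were called lower in HFSCs in both conditions. Their summed level was 1010 to 1348 CPM in untreated progenitors and 317 to 332 CPM in untreated HFSCs, and with N1-AcSpd 1207 to 1529 against 327 to 426 CPM. These markers of differentiating cells move with each comparison of the cell populations below, and their part in the S phase differences was not tested. In bulk RNA of sorted cells, more cells in S phase and more RNA of these genes per cell cannot be told apart. Fibroblast markers summed to at most 1.39 CPM, the 2 immune markers in the table (Ptprc and Cd52) to at most 4.80 CPM and melanocyte markers to at most 12.6 CPM. Sox10, Laptm5, Tyrobp, Cd207 and the endothelial marker Cdh5 were at 0 or not listed, although Pecam1, the other endothelial marker, stood between 1773 and 1957 CPM in all 16 libraries.

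Without supplementation, S phase genes were mostly higher in HFSCs than in progenitors. The edgeR quasi-likelihood test (Benjamini-Hochberg adjusted p under 0.05) called 25 of the 41 higher and 3 lower, beside 16.1% of all tested genes called higher, 16.1% lower and 32.1% in either direction. The median log2 fold change of the members was 0.28, or 1.21-fold, where the median of all tested genes was 0.022. In 25 members the 4 HFSC and 4 progenitor libraries did not overlap, as in 32.2% of all tested genes. With N1-AcSpd 27 members were called higher and 3 lower, beside 16.5% and 16.8% of all genes (33.3% in either direction). The median was then 0.42, or 1.33-fold, against -0.0068 over all genes, and the groups did not overlap for 27 members, beside 34.4% of all genes. With the mouse as a replicate block 30 and 34 members were called, beside 34.0% and 34.9% of all genes, and with DESeq2 26 and 30, beside 31.2% and 32.7%. Of the 28 members called in both conditions all 28 kept their direction, and in 24 of the 28 the difference was larger with N1-AcSpd. Of all tested genes 25.6% were called in both conditions, and of these 99.9% kept their direction and 58.5% had the larger difference with N1-AcSpd. Whether a difference itself changed with N1-AcSpd is what the interaction test given further on asks.

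**Figure D1:**
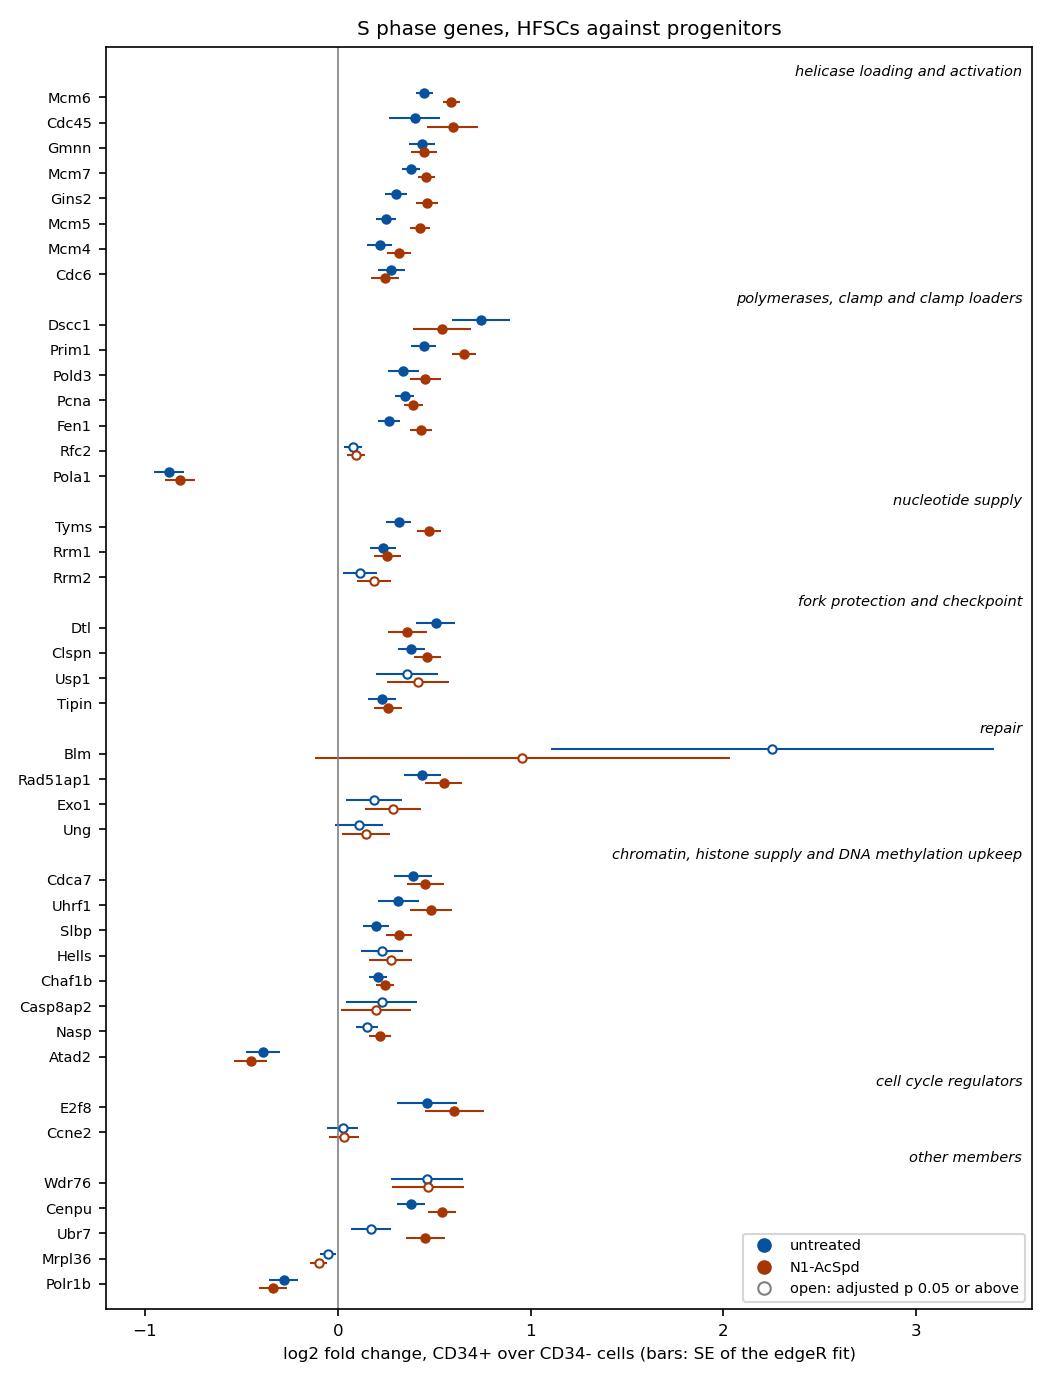
Each row is 1 of the 41 members, grouped by role, with its log2 fold change of HFSCs (CD34+) over progenitors (CD34-) on the horizontal axis in untreated (blue) and N1-AcSpd (brown) cells, and bars giving the SE of the fit. Filled points have an adjusted p under 0.05, and of these only Pola1, Atad2 and Polr1b lie left of 0, while the 2 widest bars belong to Blm.

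All 8 members grouped under helicase loading and activation, which include the loading inhibitor gene Gmnn, were called higher in HFSCs in both conditions. Their log2 fold changes ran from 0.22 to 0.45 untreated and from 0.24 to 0.59 with N1-AcSpd. Mcm6 (ENSMUSG00000026355, chromosome 1, 128331590 to 128359664 on GRCm38), a subunit of the MCM ring, stood at 36.3, 37.25, 35.2 and 38.6 CPM in untreated progenitors of mice 1 to 4 and at 49.4, 50.03, 48.1 and 53.5 CPM in their HFSCs. With N1-AcSpd it stood at 34.6, 35.6, 38.1 and 37.3 CPM in progenitors and at 52.7, 54.9, 54.01 and 57.1 CPM in HFSCs. Every HFSC library lay above every progenitor library of its condition, by 1.365-fold untreated (log2 0.45 (SE 0.044, edgeR adjusted p 4.30e-06)) and by 1.503-fold with N1-AcSpd (log2 0.59 (SE 0.044, edgeR adjusted p 5.95e-07)). Mcm4, Mcm5 and Mcm7 encode other subunits of the ring. Mcm7 differed by 0.38 (SE 0.045) untreated and 0.46 (SE 0.045) with N1-AcSpd on the log2 scale, Mcm5 by 0.25 (SE 0.052) and 0.42 (SE 0.052), and Mcm4 by 0.22 (SE 0.063) and 0.32 (SE 0.063). Counts of Mcm7 may include reads of Cops6 and Ap4m1, whose exons overlap it on the other strand. The untreated call of Mcm4 was lost without the untreated progenitors of mouse 1, the untreated HFSCs of mouse 2 or 4 or the 4 libraries from mouse 2, 3 or 4 (0.19 to 0.21, adjusted p 0.0521 to 0.0975).

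Cdc45 (ENSMUSG00000000028, chromosome 16, 18780447 to 18811987), which completes the active helicase, stood at 4.09, 4.28, 4.375 and 5.325 CPM in untreated progenitors of mice 1 to 4 and at 5.18, 6.47, 5.53 and 6.63 CPM in untreated HFSCs. With N1-AcSpd the values were 3.63, 4.26, 4.79 and 4.76 CPM in progenitors and 7.355, 5.58, 5.71 and 7.69 CPM in HFSCs. The untreated groups overlapped and the treated groups did not, and the differences were 0.40 (SE 0.13, edgeR adjusted p 0.0352) and 0.59 (SE 0.13, edgeR adjusted p 0.00316) on the log2 scale. Exons of Ufd1 overlap Cdc45 on the other strand. The untreated call of Cdc45 was lost without the untreated progenitors of mouse 1, 2 or 3, the untreated HFSCs of mouse 2 or 4 or the 4 libraries from mouse 1, 2 or 3 (0.33 to 0.415, adjusted p 0.0607 to 0.177), and also without a low-count filter (adjusted p 0.0601). Gins2, a GINS subunit with exons that overlap Gse1 on the other strand, was 0.30 (SE 0.056) and 0.46 (SE 0.056) higher in HFSCs. Gmnn encodes geminin, the inhibitor that keeps origins from being loaded again within 1 cycle, and was higher by 0.44 (SE 0.069) and 0.45 (SE 0.069). Cdc6, the loading factor, was 0.28 (SE 0.072) and 0.24 (SE 0.071) higher, although DESeq2 called it in neither condition (adjusted p 0.0987 and 0.1196). DESeq2 did not call the untreated difference of Cdc45 either (adjusted p 0.05185). The edgeR call of Cdc6 was lost in untreated cells without the untreated HFSCs of mouse 2 or 4, the untreated progenitors of mouse 3 or the 4 libraries from mouse 1, 2 or 4 (0.23 to 0.28, adjusted p 0.0571 to 0.119), and in treated cells without the N1-AcSpd progenitors of mouse 1, 2 or 4, the N1-AcSpd HFSCs of mouse 2, 3 or 4 or the 4 libraries from mouse 2, 3 or 4 (0.20 to 0.27, adjusted p 0.0615 to 0.209) or without a low-count filter (adjusted p 0.0740).

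**Figure D2:**
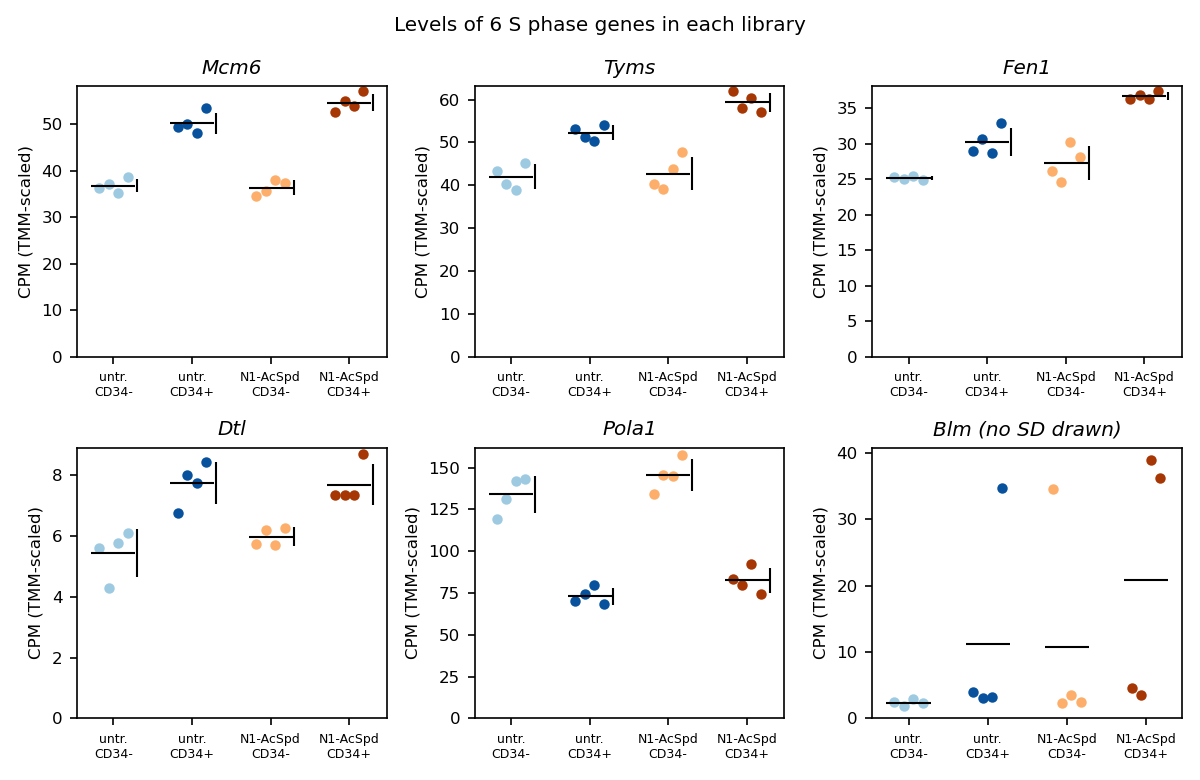
Points are single libraries of 6 members in CPM on an axis from 0, in the order of mice 1 to 4 within each of the 4 groups, with the mean as a horizontal line and the SD (n = 4) as a vertical line, left out for Blm. Mcm6 and Tyms lie higher in both HFSC groups and Pola1 lower, Fen1 lies highest in N1-AcSpd HFSCs, and Blm is above 34 CPM in 4 libraries and below 5 CPM in the other 12.

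Among the 7 polymerase, clamp and clamp loader members, 5 were called higher and 1 lower in each condition. Pola1 (ENSMUSG00000006678, chromosome X, 93304767 to 93632155), the catalytic subunit of DNA polymerase α, went the other way from most members. Its level was 119.5, 131, 142 and 143 CPM in untreated progenitors of mice 1 to 4 and 70.1, 74.2, 79.9 and 68.3 CPM in untreated HFSCs. With N1-AcSpd it was 134, 145, 145 and 158 CPM in progenitors and 83.1, 79.9, 92.2 and 74.7 CPM in HFSCs. No HFSC library reached the lowest progenitor library, and Pola1 fell by 0.87 (SE 0.078, edgeR adjusted p 1.99e-06) and by 0.82 (SE 0.077, edgeR adjusted p 2.95e-06) on the log2 scale. Prim1, the primase subunit that makes the RNA primer in the same complex, stood at 14.6, 13.4, 13.6 and 15.97 CPM in untreated progenitors and at 19.1, 19.3, 19.6 and 20.4 CPM in untreated HFSCs. With N1-AcSpd the values of Prim1 were 14.1, 12.5, 15.4 and 13.3 CPM in progenitors and 21.6, 21.75, 22.1 and 21.6 CPM in HFSCs. These groups did not overlap either, but here HFSCs were the higher, by 0.45 (SE 0.064) and 0.65 (SE 0.064), so the 2 catalytic subunits of 1 complex moved in opposite directions.

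Dscc1 (ENSMUSG00000022422, chromosome 15, 55076099 to 55090491), part of the alternative clamp loader tied to sister chromatid cohesion, had the largest rise among called members in untreated cells. It stood at 2.45, 2.49, 2.04 and 3.61 CPM in untreated progenitors and at 3.93, 4.22, 4.555 and 5.04 CPM in untreated HFSCs of mice 1 to 4. With N1-AcSpd it stood at 3.302, 2.52, 3.04 and 2.83 CPM in progenitors and at 4.198, 4.38, 3.805 and 4.64 CPM in HFSCs. Both pairs of groups were separate, with differences of 0.74 (SE 0.15, edgeR adjusted p 0.00186) and 0.54 (SE 0.15, edgeR adjusted p 0.0122), and the call in treated cells was lost without the 4 libraries from mouse 2 (0.46, adjusted p 0.111). Pcna, the sliding clamp, rose by 0.35 (SE 0.049) and 0.39 (SE 0.049). Its processed copy Pcna-ps2 was at 0 in 9 of the 16 libraries and held 558 to 946 counts in the other 7, while Pcna kept within 59.6 and 72.4 CPM in all progenitors and 78.3 and 88.4 CPM in all HFSCs. Pold3, a subunit of polymerase δ, rose by 0.34 (SE 0.081) and 0.45 (SE 0.081), and its untreated call was lost without the 4 libraries from mouse 1 or 4 (0.29 to 0.31, adjusted p 0.0511 to 0.0721). Fen1, the flap nuclease that trims Okazaki fragments, rose by 0.27 (SE 0.057) and 0.43 (SE 0.057), but its counts cannot be told from those of the antisense gene Gm10143, which had a mean count of 625 against 626 for Fen1, and exons of Tmem258 overlap it on the other strand too. Rfc2, a subunit of the main clamp loader that overlaps Lat2, differed by 0.080 (SE 0.047, edgeR adjusted p 0.234) and 0.093 (SE 0.047, edgeR adjusted p 0.158), and in treated cells it was called with the mouse as a replicate block (adjusted p 0.0395).

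Of the 3 members of nucleotide supply, 2 were called higher in each condition. Tyms (ENSMUSG00000025747, chromosome 5, 30058202 to 30073617), thymidylate synthase, stood at 43.4, 40.3, 39.02 and 45.3 CPM in untreated progenitors and at 53.15, 51.35, 50.3 and 54.2 CPM in untreated HFSCs of mice 1 to 4. With N1-AcSpd the values were 40.2, 39.1, 43.8 and 47.75 CPM in progenitors and 62.0, 58.01, 60.3 and 57.1 CPM in HFSCs. HFSC libraries lay above all progenitor libraries of their condition, by 0.31 (SE 0.063, edgeR adjusted p 0.00163) and 0.47 (SE 0.063, edgeR adjusted p 5.49e-05) on the log2 scale. Rrm1 (ENSMUSG00000030978, chromosome 7, 102441695 to 102469771), the large subunit of ribonucleotide reductase, stood at 47.02, 44.15, 47.3 and 45.7 CPM in untreated progenitors and at 55.4, 51.85, 58.7 and 50.7 CPM in untreated HFSCs. With N1-AcSpd it stood at 48.1, 42.5, 53.2 and 51.3 CPM in progenitors and at 61.2, 53.2, 60.6 and 58.02 CPM in HFSCs. The untreated groups were separate and the treated groups overlapped, and Rrm1 rose by 0.23 (SE 0.069, edgeR adjusted p 0.0184) and 0.26 (SE 0.069, edgeR adjusted p 0.0105). Its untreated call was lost without the untreated progenitors of mouse 2, the untreated HFSCs of mouse 3 or the 4 libraries from mouse 1, 3 or 4 (0.18 to 0.26, adjusted p 0.0507 to 0.0952), and its call in treated cells without the 4 libraries from mouse 1 (0.23, adjusted p 0.103). Rrm2, the small subunit, which is made mainly in S phase, was not called in either condition (0.11 (SE 0.087, edgeR adjusted p 0.377) and 0.19 (SE 0.087, edgeR adjusted p 0.119)). In treated cells it was called with the mouse as a replicate block (adjusted p 0.0154) and without the N1-AcSpd progenitors of mouse 3 (0.25, adjusted p 0.04902).

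Of the 4 fork protection and checkpoint members, 3 were called higher in both conditions. Dtl (ENSMUSG00000037474, chromosome 1, 191537356 to 191575544), the substrate receptor of a ubiquitin ligase that clears CDT1 during replication, stood at 5.59, 4.28, 5.76 and 6.09 CPM in untreated progenitors and at 6.77, 8.01, 7.75 and 8.43 CPM in untreated HFSCs of mice 1 to 4. With N1-AcSpd progenitors held 5.74, 6.21, 5.704 and 6.28 CPM and HFSCs 7.355, 7.34, 7.365 and 8.69 CPM. The groups were separate in both conditions, with differences of 0.51 (SE 0.10, edgeR adjusted p 0.00166) and 0.36 (SE 0.10, edgeR adjusted p 0.0130), and the call in treated cells was lost without the 4 libraries from mouse 1, 3 or 4 (0.32 to 0.36, adjusted p 0.0533 to 0.0789). Clspn (ENSMUSG00000042489, chromosome 4, 126556935 to 126593903) encodes claspin, which links stalled forks to the checkpoint kinase CHK1. It stood at 12.6, 13.8, 13.3 and 12.3 CPM in untreated progenitors and at 17.02, 15.7, 18.65 and 16.3 CPM in untreated HFSCs, and with N1-AcSpd at 11.35, 12.8, 12.4 and 12.4 against 17.6, 18.4, 14.9 and 16.6 CPM. Clspn groups did not overlap, and the rises were 0.38 (SE 0.070, edgeR adjusted p 0.000945) and 0.46 (SE 0.070, edgeR adjusted p 0.000176). Tipin, a fork protection factor, rose by 0.23 (SE 0.071) and 0.26 (SE 0.071), and its untreated call was lost without the untreated HFSCs of mouse 1 or 3, the untreated progenitors of mouse 2 or 3 or the 4 libraries from mouse 1 or 2 (0.18 to 0.23, adjusted p 0.0522 to 0.124), its call in treated cells without the 4 libraries from mouse 1 or 4 (0.21 to 0.23, adjusted p 0.0881 to 0.0962). Usp1, a deubiquitinase that acts on PCNA, differed by 0.36 (SE 0.16, edgeR adjusted p 0.105) and 0.42 (SE 0.16, edgeR adjusted p 0.0603). It was called in treated cells with the replicate block (adjusted p 0.0492), with DESeq2 (adjusted p 0.04215) and without the N1-AcSpd progenitors of mouse 1, the untreated progenitors of mouse 2, the untreated HFSCs of mouse 3 or the N1-AcSpd HFSCs of mouse 3 (0.42 to 0.51, adjusted p 0.0359 to 0.0464), and in untreated cells without the untreated progenitors of mouse 2 (0.48, adjusted p 0.0354).

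Among the 4 repair members only Rad51ap1 passed the test, in both conditions. Rad51ap1 (ENSMUSG00000030346, chromosome 6, 126923050 to 126939587), an accessory factor of recombination, stood at 5.12, 3.83, 4.81 and 4.56 CPM in untreated progenitors and at 6.77, 5.98, 6.29 and 5.81 CPM in untreated HFSCs of mice 1 to 4. With N1-AcSpd it stood at 5.28, 4.76, 4.41 and 4.02 CPM in progenitors and at 6.65, 6.775, 6.38 and 7.22 CPM in HFSCs. Groups did not overlap, and the differences were 0.44 (SE 0.096, edgeR adjusted p 0.003105) and 0.55 (SE 0.095, edgeR adjusted p 0.000500). Ung, which removes uracil from DNA, differed by 0.11 (SE 0.125, edgeR adjusted p 0.589) and 0.15 (SE 0.12, edgeR adjusted p 0.422). The exonuclease gene Exo1 differed by 0.19 (SE 0.14, edgeR adjusted p 0.385) and 0.29 (SE 0.14, edgeR adjusted p 0.152), and was called in untreated cells without the untreated progenitors of mouse 4 (0.36, adjusted p 0.03695). Blm, the Bloom helicase gene, had the largest fitted difference of all members in both conditions (2.25 (SE 1.15, edgeR adjusted p 0.161) and 0.96 (SE 1.075, edgeR adjusted p 0.571)). Blm stood at 2.41, 1.79, 2.86 and 2.35 CPM in untreated progenitors of mice 1 to 4, at 3.93, 3.13, 3.25 and 34.7 CPM in untreated HFSCs, and with N1-AcSpd at 34.6, 2.31, 3.499 and 2.46 against 4.64, 3.47, 38.97 and 36.3 CPM. It thus lay between 34.6 and 39.0 CPM in 4 libraries (N1-AcSpd progenitors of mouse 1, untreated HFSCs of mouse 4, and N1-AcSpd HFSCs of mice 3 and 4) and between 1.79 and 4.64 CPM in the other 12. In those same 4 libraries Ndufab1-ps, a processed pseudogene within the span of Blm on the other strand, held 550 to 780 counts, and it was at 0 in the other 12. Blm values are therefore not read as levels of the helicase gene.

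The 8 members for chromatin, histone supply and DNA methylation upkeep gave 4 called higher and 1 lower in untreated cells, and 5 higher and 1 lower with N1-AcSpd. Cdca7 (ENSMUSG00000055612, chromosome 2, 72476159 to 72486893), which recruits the remodeller HELLS, stood at 19.96, 23.1, 17.7 and 19.7 CPM in untreated progenitors and at 23.1, 28.97, 28.03 and 25.3 CPM in untreated HFSCs of mice 1 to 4. With N1-AcSpd it stood at 18.0, 20.3, 21.6 and 18.7 CPM in progenitors and at 26.8, 30.7, 24.9 and 25.25 CPM in HFSCs. The groups overlapped in untreated cells and were separate in treated cells, with differences of 0.39 (SE 0.097, edgeR adjusted p 0.00688) and 0.45 (SE 0.097, edgeR adjusted p 0.00226), the untreated one lost without the 4 libraries from mouse 3 (0.30, adjusted p 0.0669). Atad2 (ENSMUSG00000022360, chromosome 15, 58094044 to 58135082), a bromodomain ATPase of replicating chromatin, was lower in HFSCs. It stood at 25.2, 22.5, 28.9 and 27.25 CPM in untreated progenitors and at 18.8, 18.4, 21.7 and 20.4 CPM in untreated HFSCs. With N1-AcSpd the levels of Atad2 were 26.04, 25.1, 26.5 and 28.3 CPM in progenitors and 19.1, 19.1, 22.03 and 17.15 CPM in HFSCs. No libraries of the 2 populations overlapped within a condition, and Atad2 fell by 0.39 (SE 0.086, edgeR adjusted p 0.00342) and by 0.45 (SE 0.086, edgeR adjusted p 0.00104) on the log2 scale.

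Among the other chromatin members, Uhrf1, which guides maintenance DNA methylation to new strands, rose by 0.31 (SE 0.11) and 0.48 (SE 0.11), and its untreated call was lost without the untreated progenitors of mouse 2, 3 or 4, the untreated HFSCs of mouse 3 or 4 or the 4 libraries from mouse 2, 3 or 4 (0.22 to 0.32, adjusted p 0.0648 to 0.206). It was lost as well without a low-count filter (adjusted p 0.06455) and with the compared groups alone (adjusted p 0.0803). Chaf1b, a chromatin assembly factor subunit, rose by 0.21 (SE 0.047) and 0.25 (SE 0.047), the untreated call lost without the 4 libraries from mouse 2 (0.18, adjusted p 0.0563). Slbp, whose product binds histone mRNA, rose by 0.20 (SE 0.067) and 0.32 (SE 0.067), and its untreated call was lost without the untreated progenitors of mouse 1, 3 or 4, the untreated HFSCs of mouse 1, 2, 3 or 4 or the 4 libraries from mouse 1, 2, 3 or 4 (0.17 to 0.21, adjusted p 0.05001 to 0.122). Neither DESeq2 size factors (adjusted p 0.0502) nor the fit without a low-count filter (adjusted p 0.06625) called it, and exons of Gm10459 overlap Slbp on the other strand. The histone chaperone gene Nasp was called with N1-AcSpd (0.22 (SE 0.056, edgeR adjusted p 0.00719)), except without the 4 libraries from mouse 1 (0.20, adjusted p 0.0704). In untreated cells Nasp just missed the threshold (0.15 (SE 0.056, edgeR adjusted p 0.0515)), where it was called with the replicate block (adjusted p 0.0391) and without the N1-AcSpd HFSCs of mouse 2, 3 or 4 or the 4 libraries from mouse 2 (0.14 to 0.17, adjusted p 0.0122 to 0.0466). The filter of edgeR (adjusted p 0.0476) and the compared groups alone (adjusted p 0.0138) gave a call of Nasp as well. Hells, a remodeller needed for DNA methylation, differed by 0.23 (SE 0.11, edgeR adjusted p 0.137) and 0.27 (SE 0.11, edgeR adjusted p 0.0732). The replicate block called Hells in both conditions (adjusted p 0.03125 and 0.0156), and in treated cells it was called without the N1-AcSpd progenitors of mouse 1, the N1-AcSpd HFSCs of mouse 4 or the 4 libraries from mouse 4 (0.28 to 0.36, adjusted p 0.0201 to 0.0459). Casp8ap2, needed for histone gene expression, differed by 0.23 (SE 0.18, edgeR adjusted p 0.404) and 0.20 (SE 0.18, edgeR adjusted p 0.4698).

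The 2 cell cycle regulators differed from each other. E2f8 (ENSMUSG00000046179, chromosome 7, 48866429 to 48881596), an E2F family repressor, stood at 3.44, 3.26, 5.85 and 4.29 CPM in untreated progenitors and at 5.86, 5.21, 6.24 and 5.96 CPM in untreated HFSCs of mice 1 to 4. With N1-AcSpd it stood at 3.92, 3.66, 4.335 and 4.18 CPM in progenitors and at 6.798, 5.12, 6.38 and 6.17 CPM in HFSCs. The untreated progenitors of mouse 3 lay among the HFSCs, and in treated cells the groups were separate, with differences of 0.46 (SE 0.15, edgeR adjusted p 0.0336) and 0.60 (SE 0.15, edgeR adjusted p 0.00732). The untreated call was lost without the untreated progenitors of mouse 1, 2 or 4, the untreated HFSCs of mouse 1, 3 or 4 or the 4 libraries from mouse 1, 2 or 4 (0.36 to 0.47, adjusted p 0.0593 to 0.189), and the call in treated cells without the 4 libraries from mouse 1 or 4 (0.54 to 0.62, adjusted p 0.0553 to 0.0621). The untreated call of E2f8 was also lost without a low-count filter (adjusted p 0.0594) and with the compared groups alone (adjusted p 0.103), and exons of Gm2788 overlap it on the other strand. Ccne2 (ENSMUSG00000028212, chromosome 4, 11191351 to 11204779) encodes cyclin E2, which drives entry into S phase. It stood at 6.97, 7.603, 7.06 and 8.03 CPM in untreated progenitors and at 6.715, 8.01, 7.54 and 7.915 CPM in untreated HFSCs, and with N1-AcSpd at 7.88, 7.77, 8.59 and 9.48 against 8.21, 8.03, 9.39 and 8.87 CPM. The groups overlapped in both conditions, and the fitted differences were 0.025 (SE 0.080, edgeR adjusted p 0.872) and 0.032 (SE 0.079, edgeR adjusted p 0.8585). Exons of Ccne2 overlap Ints8 on the other strand, whose counts followed it across libraries (r of 0.978 over the 16 libraries, which also share depth).

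Of the 5 remaining members, Cenpu (ENSMUSG00000031629, chromosome 8, 46552028 to 46580007), a kinetochore protein gene, was called higher in both conditions. It stood at 7.055, 6.84, 6.32 and 6.77 CPM in untreated progenitors and at 8.99, 8.89, 7.81 and 9.405 CPM in untreated HFSCs, and with N1-AcSpd at 6.19, 7.17, 6.62 and 6.77 against 10.7, 9.45, 10 and 8.75 CPM. The libraries did not overlap, with differences of 0.38 (SE 0.073, edgeR adjusted p 0.001235) and 0.54 (SE 0.072, edgeR adjusted p 5.84e-05), but Primpol on the other strand had near-identical counts, with a mean of 158.5 against 167 for Cenpu. Wdr76, a WD repeat protein gene, stood at 1.68, 2.24, 1.91 and 2.62 CPM in untreated progenitors and at 2.56, 3.13, 3.47 and 2.47 CPM in untreated HFSCs, and with N1-AcSpd at 2.105, 1.88, 2.93 and 1.76 against 2.897, 3.64, 2.95 and 2.525 CPM. The groups overlapped, and Wdr76 differed by 0.46 (SE 0.19, edgeR adjusted p 0.0776) and 0.47 (SE 0.19, edgeR adjusted p 0.0708). It was called in untreated cells without the N1-AcSpd progenitors of mouse 3, the untreated progenitors of mouse 4 or the 4 libraries from mouse 4 (0.46 to 0.66, adjusted p 0.0383 to 0.04495), and in treated cells without the N1-AcSpd progenitors of mouse 3 or the 4 libraries from mouse 3 (0.65, adjusted p 0.0138 to 0.0323). Ubr7, a histone ubiquitin ligase gene that overlaps Gm20604, was called with N1-AcSpd (0.45 (SE 0.10, edgeR adjusted p 0.003435)) and not in untreated cells (0.17 (SE 0.10, edgeR adjusted p 0.239)), except without the untreated progenitors of mouse 4 (0.275, adjusted p 0.0454). Polr1b, a subunit of RNA polymerase I and thus not a replication gene, fell by 0.28 (SE 0.074, edgeR adjusted p 0.00973) and by 0.34 (SE 0.073, edgeR adjusted p 0.00271), the untreated call lost without the untreated HFSCs of mouse 4 or the 4 libraries from mouse 2 or 4 (-0.26 to -0.23, adjusted p 0.0611 to 0.0925) or with library totals (adjusted p 0.1365). Mrpl36, a mitochondrial ribosomal protein gene whose exons overlap Ndufs6, differed by -0.050 (SE 0.043, edgeR adjusted p 0.4303) and -0.10 (SE 0.043, edgeR adjusted p 0.0902), and was called in treated cells without the N1-AcSpd HFSCs of mouse 3 (-0.13, adjusted p 0.0463).

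Shared exons, single libraries and scaling bear on these counts. Exons or counts were shared with another tested gene by 12 of the 41 members. Over the other 29, edgeR called 18 higher and 3 lower in untreated cells, beside 16.1% and 16.1% of all tested genes. With N1-AcSpd it called 19 of the 29 higher and 3 lower, beside 16.5% and 16.8% of all genes. Leaving out each of the 16 libraries and each of the 4 mice in turn gave 20 to 29 members called in untreated cells and 25 to 32 with N1-AcSpd. Over all tested genes these fits called 4501 to 6222 and 4922 to 6365 genes. The call was kept in all 20 of these fits by 14 of the 25 members called higher and 2 of the 3 called lower in untreated cells, and by 20 of 27 and 3 of 3 with N1-AcSpd. How many of all called genes kept their call in every fit was not counted. When library totals replaced TMM scaling, the median of all tested genes moved to 0.14 in untreated and 0.11 in treated cells, and 31 members were called higher and 2 lower in untreated cells, beside 25.5% and 9.23% of all genes. In treated cells 33 were then called higher and 3 lower, beside 25.2% and 9.99% of all genes. The members that library totals called beyond TMM scaling were Rfc2, Usp1, Nasp, Hells, Wdr76 and Ubr7 in untreated cells and Rfc2, Rrm2, Usp1, Exo1, Hells and Wdr76 in treated cells. The medians of the members were then 0.39 and 0.53, and the sign of Mrpl36 turned (0.064 and 0.017).

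Summed over all 41 members, the level was 982 ± 18.5 CPM in untreated progenitors and 1074 ± 28.8 CPM in untreated HFSCs, and 1027 ± 40.9 and 1172 ± 22.7 CPM with N1-AcSpd (mean ± SD, n = 4). HFSCs exceeded progenitors of the same mouse in 4 of 4 mice in each condition, by 1.07-fold to 1.11-fold untreated and by 1.12-fold to 1.18-fold with N1-AcSpd. Pola1 alone made up 6.18% to 15.1% of this sum and moved against it. Without Pola1, Polr1b and Mrpl36 the sums were 774 ± 14.3, 931 ± 30.8, 806 ± 41.3 and 1019 ± 19.2 CPM in the same order of groups. Leaving out Blm as well gave 772 ± 14.2, 920.1 ± 19.4, 795 ± 42.9 and 998.3 ± 3.65 CPM.

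**Figure D3:**
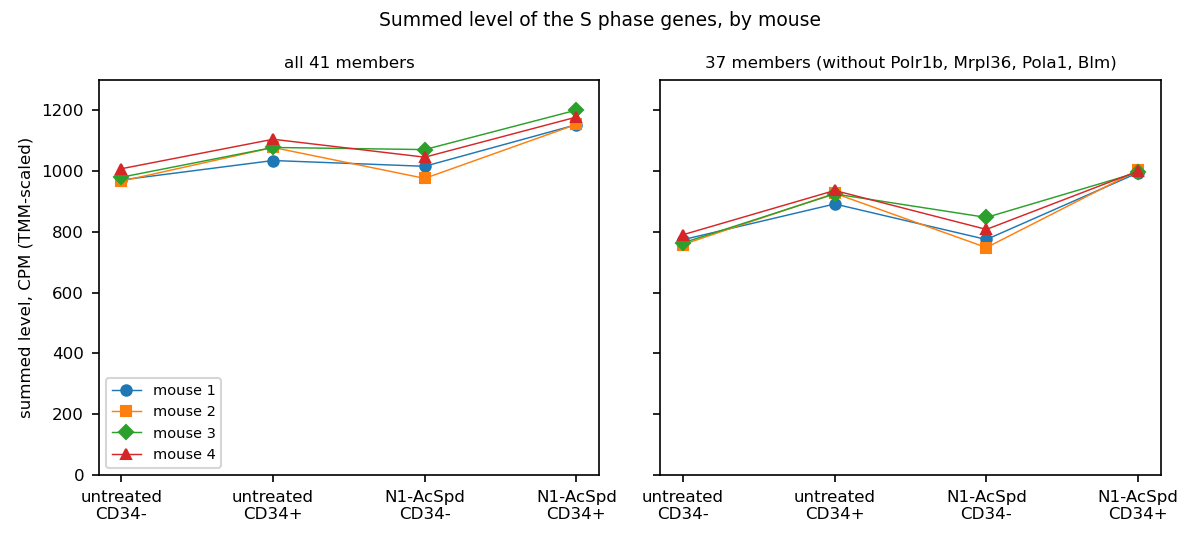
Summed CPM of the members in each library, on an axis from 0, with 1 line per mouse across the 4 groups, for all 41 members (left) and for the 37 left without Polr1b, Mrpl36, Pola1 and Blm (right). In both panels each mouse has a higher sum in HFSCs than in progenitors of its condition, and the highest sums are those of N1-AcSpd HFSCs.

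Further genes of DNA replication that are not members were counted from a list of 61, all tested. Called higher in HFSCs were 31 and called lower 2 in untreated cells, beside 16.1% and 16.1% of all tested genes. With N1-AcSpd these were 34 and 3, beside 16.5% and 16.8% of all genes. The list medians were 0.25 untreated and 0.29 with N1-AcSpd. The largest called rises with N1-AcSpd were those of Tk1 (thymidine kinase, 0.91 (SE 0.11)), Lig1 (the ligase that joins Okazaki fragments, 0.80 (SE 0.087)) and Asf1b (a histone chaperone, 0.70 (SE 0.093)). The called falls were those of Pola2, Ticrr and Prim2. Pola2, the regulatory subunit of polymerase α, stood at 515, 502, 565 and 546 CPM in untreated progenitors of mice 1 to 4 and at 277, 292, 311.5 and 241 CPM in their HFSCs. It fell by 0.93 (SE 0.078) in untreated cells and by 0.86 (SE 0.078) with N1-AcSpd. Ticrr, which helps CDC45 onto origins, fell by 0.81 (SE 0.082) and by 0.75 (SE 0.082). Prim2, the large primase subunit, was called in treated cells, where it fell by 0.12 (SE 0.039), and differed by -0.057 (SE 0.039) in untreated cells. Counts of both polymerase α subunits were thus lower in HFSCs, those of the primase subunit Prim1 were higher, and Prim2 was called lower in treated cells only. Mean levels in untreated progenitors were 532 CPM for Pola2, 134 for Pola1, 32.3 for Prim2 and 14.4 for Prim1. Whether counts of Pola2, Ticrr or Prim2 include reads of overlapping genes was not looked up.

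The 30 genes of G2 and mitosis, set beside them, gave 24 called higher and 1 lower (Cdc25c) in untreated HFSCs, beside 16.1% and 16.1% of all tested genes. With N1-AcSpd 29 were called higher, beside 16.5% of all genes. The median differences of the 30 genes were 0.54 and 0.81, where those of the S phase members were 0.28 and 0.42, and the lists were not tested against each other. Of these genes, Top2a and Nusap1 are given as examples chosen after their values were seen. Top2a, the topoisomerase of dividing cells, rose by 0.83 (SE 0.13) and 1.07 (SE 0.14), and Nusap1, a spindle protein gene, by 0.96 (SE 0.12) and 1.249 (SE 0.12).

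**Figure D4:**
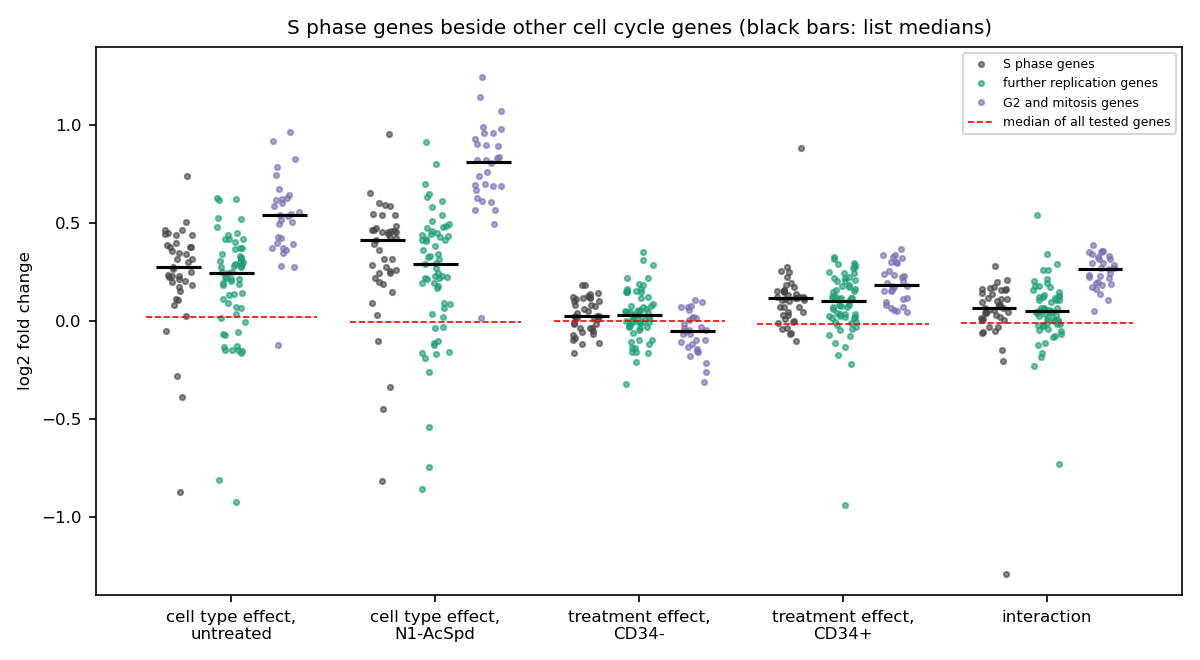
Log2 fold changes of single genes in the 5 comparisons for the 41 S phase genes (grey), 61 further replication genes (green) and 30 G2 and mitosis genes (purple), with black bars for list medians and red dashes for the median of all tested genes. In both comparisons of the cell populations the 3 list medians lie above the dashes, and Blm lies outside the drawn range in 2 comparisons (2.25 between untreated populations and 2.18 with N1-AcSpd in progenitors).

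Within progenitors, N1-AcSpd changed no member past the test. EdgeR called 0 of the 41, beside 0.614% of all tested genes, and DESeq2 and the fit with the mouse as a replicate block called 0 as well, beside 2.93% and 1.84%. At an unadjusted p under 0.05 stood 1 member, Ccne2, which was higher, beside 13.6% of all genes (7.23% higher), and the median of the members was 0.026 against 0.00011 over all genes. Ccne2, whose levels are given above, was higher with N1-AcSpd in progenitors of 4 of 4 mice, with overlapping groups (0.19 (SE 0.079, edgeR adjusted p 0.326), unadjusted p 0.03555). Next in order of p were Rfc2, Rrm2 and Fen1. Rfc2 stood at 51.6, 47.3, 51.6 and 53.3 CPM in untreated and at 54.9, 49.8, 56.2 and 57.7 CPM in treated progenitors, higher in 4 of 4 mice, by 0.10 (SE 0.047, edgeR adjusted p 0.371). Rrm2 stood at 76.7, 81.1, 77.7 and 86.05 CPM in untreated and at 79.6, 83.5, 103 and 98.99 CPM in treated progenitors, again higher in each mouse, by 0.18 (SE 0.087, edgeR adjusted p 0.386). Fen1 went from 25.3, 24.98, 25.4 and 24.9 CPM to 26.1, 24.6, 30.2 and 28.1 CPM, higher in 3 of 4 mice, by 0.12 (SE 0.057, edgeR adjusted p 0.394). In Mcm4 alone treated and untreated progenitors did not overlap (0.12 (SE 0.063, edgeR adjusted p 0.412)), beside 9.05% of all genes (4.91% higher).

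Within HFSCs the members lay mostly higher with N1-AcSpd, without passing the edgeR test across all genes. Called by edgeR were 0 of the 41, beside 0.325% of all genes. At an unadjusted p under 0.05 stood 13 members, all of them higher, beside 6.78% of all genes that were higher at that level and 13.2% in either direction. The median difference was 0.12 where that of all genes was -0.014, and 33 of the 41 had a positive value, as had 46.6% of all genes. Groups did not overlap for 10 members, all higher with N1-AcSpd, beside 3.38% of all genes that did so higher and 6.81% in either direction. The 13 were Mcm4, Mcm5, Mcm6, Mcm7, Pola1, Prim1, Pcna, Rfc2, Fen1, Tyms, Rrm2, Ccne2 and Ubr7, with log2 differences from 0.10 to 0.28. Among them, exons of Mcm7, Rfc2, Fen1, Ccne2 and Ubr7 overlap another tested gene on the other strand, so their counts may include its reads. By role, 4 of the 8 helicase members, 5 of the 7 polymerase and clamp members and 2 of the 3 nucleotide supply members were among them, and 0 of the fork protection, repair or chromatin members. The roles were not tested against each other, and some members lay near the cutoff. Tipin (0.15, unadjusted edgeR p 0.0507) was higher in 4 of 4 mice without overlap, and Slbp (p 0.0635) and Chaf1b (p 0.0702) in 4 of 4 mice with overlap. Mcm7, among the 13, was higher in 3 of 4 mice with overlap (0.10, p 0.0397). The differentiation markers had a median difference of 0.30 with N1-AcSpd in HFSCs and 0.11 in progenitors, with 0 of 8 called, and their part was not tested.

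Fen1, whose counts cannot be told from those of Gm10143, had the smallest p in HFSCs. It was higher in every mouse, at 28.97, 30.6, 28.6 and 32.9 CPM in untreated HFSCs of mice 1 to 4 and 36.3, 36.8, 36.3 and 37.5 CPM with N1-AcSpd, and the groups did not overlap. The difference was 0.28 (SE 0.057, edgeR adjusted p 0.0635), DESeq2 called it (adjusted p 0.0007145), as did edgeR with DESeq2 size factors (adjusted p 0.0398), and edgeR called it without the N1-AcSpd progenitors of mouse 2 or 3 or the untreated HFSCs of mouse 4 (0.28 to 0.34, adjusted p 0.0335 to 0.0443). Mcm4 stood at 19.35, 23.3, 22.2 and 22.9 CPM untreated and at 23.4, 26.9, 26.3 and 26.02 CPM treated, higher in each mouse and without overlap, a difference of 0.23 (SE 0.063, edgeR adjusted p 0.1602). With the mouse as a replicate block Mcm4 was the 1 member called (adjusted p 0.0219), beside 0.798% of all genes, and DESeq2 called it too (adjusted p 0.0367). Tyms was the other member that DESeq2 called, making 3 beside 2.22% of all genes (0.18 (SE 0.063, edgeR adjusted p 0.2404), DESeq2 adjusted p 0.0487). Mcm5 was higher in 4 of 4 mice, from 33.2, 38.1, 35.5 and 35.3 CPM to 40.3, 40.99, 36.5 and 40.9 CPM, with overlapping groups (0.16 (SE 0.052, edgeR adjusted p 0.219)). Rrm2 was higher in each mouse, from 79.1, 84.4, 90.4 and 93.95 CPM to 96.7, 95.9, 114 and 109 CPM, without overlap (0.26 (SE 0.087, edgeR adjusted p 0.2395)). The summed level of the 41 members was 1.07-fold to 1.11-fold higher with N1-AcSpd in HFSCs of the same mouse, and 1.01-fold to 1.09-fold higher in progenitors. Without Polr1b, Mrpl36 and Pola1 the sum in progenitors was higher with N1-AcSpd in 3 of 4 mice. Both of these sums include Blm. With Blm left out as well, the ratio was 0.987 to 1.11 in progenitors, above 1 in 3 of 4 mice, and 1.07 to 1.115 in HFSCs. Progenitors of mouse 1 then went from 774.5 to 775.1 CPM, where with Blm they went from 776.9 to 809.8 CPM.

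**Figure D5:**
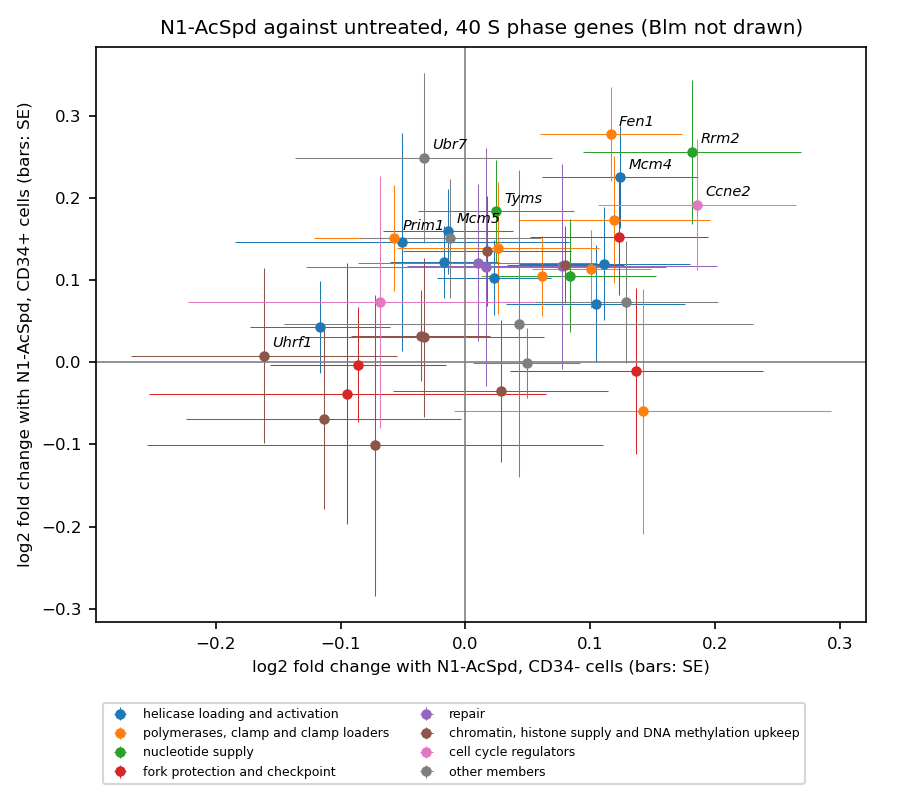
Log2 fold changes with N1-AcSpd in progenitors (horizontal axis) and in HFSCs (vertical axis) for 40 members, coloured by role, with bars giving the SE of each fit and Blm left out. Most points lie above 0 on the vertical axis and on both sides of 0 on the horizontal axis, and 0 of the 41 members have an edgeR adjusted p under 0.05 in either comparison.

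Of the 61 further replication genes, 1 was called with N1-AcSpd in progenitors and 2 in HFSCs, beside 0.614% and 0.325% of all genes. The called replication genes are named here after their values were seen. Pold2, a subunit of polymerase δ, was called in both populations (0.22 (SE 0.042, edgeR adjusted p 0.0409) in progenitors and 0.22 (SE 0.042, edgeR adjusted p 0.0468) in HFSCs), a call kept in 5 and 3 of the 20 fits that leave out a library or a mouse. Dtymk, the kinase that makes dTDP, stood at 60.4, 59.96, 59.8 and 59.1 CPM in untreated HFSCs of mice 1 to 4 and at 71.4, 70.65, 69.97 and 72.8 CPM with N1-AcSpd, a rise of 0.25 (SE 0.033, edgeR adjusted p 0.00728) that was called in 16 of the 20. Of the 30 G2 and mitosis genes 0 were called in either population (1 and 9 at an unadjusted p under 0.05 in progenitors and HFSCs), and 30 had a positive difference in HFSCs against 10 in progenitors.

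Whether the difference between HFSCs and progenitors depends on N1-AcSpd was tested by the interaction term. EdgeR, the fit with the replicate block and DESeq2 called 0 of the 41 members, and edgeR called 0.0% of all genes and DESeq2 0.378%. Unadjusted p-values under 0.05 were found for 3 members, beside 4.19% of all genes (1.92% higher), each with an adjusted p of 1: Mcm5 (0.17 (SE 0.074)), Prim1 (0.21 (SE 0.091)) and Mcm6 (0.14 (SE 0.062)). Mcm5, of which the HFSC levels are given above, stood at 30.03, 29, 29.1 and 31.3 CPM in untreated and at 30.3, 27.4, 30.8 and 29.7 CPM in treated progenitors. The interaction was positive for 33 of 41 members, beside 47.9% of all genes, with a median of 0.064 against -0.0077 over all genes. It was positive in 4 of 4 mice for 4 members (Mcm4, Mcm6, Fen1 and Uhrf1), beside 7.06% of all genes. For the 30 G2 and mitosis genes the median was 0.27, and 30 of 30 were positive.

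Members were also sorted into classes by an adjusted p under 0.05 and an absolute log2 fold change over 0.5 between the cell populations. The fold limit is that of the study, whose text does not state whether the p behind its classes was adjusted. The class that passed in both conditions held 2 members (Pola1 and Dscc1), that of untreated cells only held 1 (Dtl) and that of N1-AcSpd cells only held 6 (Mcm6, Cdc45, Prim1, Rad51ap1, E2f8 and Cenpu), while 32 passed in neither. Over all genes these classes held 12.3%, 3.02%, 4.51% and 80.2%. The 6 members of the N1-AcSpd class were called in untreated cells too and missed only the fold limit there, at 0.38 to 0.46. For all 7 members placed in 1 condition only, the interaction test gave an adjusted p of 1. Without mouse 3 the N1-AcSpd class held 11 members, without mouse 4 the untreated class held 3, and without mouse 2 or mouse 4 the class of both conditions held 1.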

How the data were processed

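RNA of sorted cells was reverse transcribed with a barcode per sample and sequenced as pooled libraries. Per the labels and the methods of the study, reads were demultiplexed and labelled with their UMIs by FLEXBAR, checked with FastQC 0.11.7 and mapped with kallisto 0.45.0 to mm10, and bedtools and R were used to count UMIs per gene. The authors deposited these whole-number counts without normalization. Empty cells (156050) were read as 0, and 94 of the 32989 identifiers, holding 0.125% of counts, had no symbol. Whether counting used the strand is not given in the sources used here, so genes whose exons overlap a member on the opposite strand are named beside its values, and overlaps of genes that are not members were not looked up. Counts carry counting error as well as the spread between mice, and no 2 libraries of a group agreed within sampling noise (chi-square per degree of freedom of at least 25.2).

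Here, all 16 libraries entered 1 fit in edgeR 4.0.16 (R 4.3.3, limma 3.58.1) with TMM scaling, 4 group means and the quasi-likelihood test, over the 19049 genes whose counts averaged 5 or more, with Benjamini-Hochberg adjustment over all of them. A call is an adjusted p under 0.05, and an SE was obtained from the log2 fold change and its F statistic (their ratio after taking the root of F). In all, 5 contrasts were read: HFSCs against progenitors in untreated and in N1-AcSpd cells, N1-AcSpd against untreated in each population, and the interaction. The fit was also run on simulated counts that held no effect of the mouse. That run does not bear on pairing, and no result given here rests on it. Samples with the same replicate number carry the same code in their labels. The code was read as the mouse, since the methods of the study name 4 donors. Deviations from group means of same-mouse libraries correlated at 0.013 on average (-0.069 to 0.086, 24 pairs) against -0.0044 for other pairs. Alternatives were DESeq2 1.42.0, its size factors, library totals, other filters, the compared groups alone, the mouse as a replicate block, and leaving out each library or mouse.

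The members and lists were chosen with earlier results of these data known. Values in every library are given for the 2 members with the largest mean cell type difference in each role group, the 4 with the smallest p in each treatment comparison and the 3 with the smallest p in the interaction. Each member not called, called lower or called with treatment is named. From the further replication genes, the 3 largest called rises and falls with N1-AcSpd are named. Gene positions are from GENCODE on GRCm38, and promoters from RefSeq on GRCm38.p6, where 4 members had 2 entries. All 5 melanocyte, 5 fibroblast, 5 immune and 2 endothelial markers were looked up.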

Additional observations from a re-analysis of the deposited data

Results flagged for a closer look

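Single libraries that stood apart from the other 3 of their group by Dixon's criterion were looked for in 92 groups of 4 libraries, for the 22 members described by library and the summed level, and 4 were found, where chance alone would give about 1 in 20. Dtl was at 8.69 CPM in N1-AcSpd HFSCs of mouse 4, where the next was 7.37 CPM. Mcm5 was at 36.5 CPM in N1-AcSpd HFSCs of mouse 3, the lowest, where the next was 40.3 CPM. Blm was at 34.7 CPM in untreated HFSCs of mouse 4, where the next was 3.93 CPM, and at 34.6 CPM in N1-AcSpd progenitors of mouse 1, where the next was 3.50 CPM. In both libraries Ndufab1-ps, within the span of Blm, was counted 610 and 780 times, and it was at 0 in the other libraries of these 2 groups.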

How the results depend on the processing

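The cause of the changes below was not tested. With library totals, the median log2 fold changes of the S phase genes between the populations were 0.39 untreated and 0.53 with N1-AcSpd, the summed levels 940.0, 1114 and 1223 CPM in untreated progenitors, untreated HFSCs and N1-AcSpd HFSCs, and Mrpl36 turned in both conditions (0.064 and 0.017). With DESeq2 size factors the median difference with N1-AcSpd in HFSCs was 0.13 and 1 member was called, with DESeq2 3. Over all genes, N1-AcSpd calls in progenitors were 117 in the report's fit, 35 without a low-count filter, 0 with the compared groups alone and 558 with DESeq2, and in HFSCs 62, 35, 3 and 423. DESeq2 called 72 genes for the interaction, for which the compared groups alone could not be used.

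With the mouse as a replicate block, 351 genes were called with N1-AcSpd in progenitors and 152 in HFSCs, of which 1 was a member, and the pairing changed the other member calls only where the report says so.

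The class of both conditions held 28 members without a fold threshold, beside 25.6% of all tested genes, and 10 with library totals. That of N1-AcSpd only held 2 and 12, and that of neither 11 and 18. That of untreated cells only held 0 without a fold threshold, with DESeq2 size factors and with DESeq2. Shares of all genes in these classes were otherwise not counted under these settings. Summed levels were 908, 1004, 951 and 1102 CPM without Polr1b and Mrpl36 and, chosen after seeing the data, 774, 931, 806 and 1019 CPM without Pola1 as well, in the order untreated progenitors, untreated HFSCs, N1-AcSpd progenitors and N1-AcSpd HFSCs. The count of members that share no exon was likewise chosen after seeing the data.

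Leaving out each library or mouse gave 20 to 29 S phase genes called untreated and 25 to 32 with N1-AcSpd, 0 with treatment in progenitors, 0 to 1 in HFSCs and 0 for the interaction. Over all genes it gave 4501 to 6222, 4922 to 6365, 4 to 161, 3 to 85 and 0 to 11, and the S phase medians ran from 0.25 to 0.31, 0.35 to 0.45, 0.016 to 0.058, 0.10 to 0.14 and 0.046 to 0.11. Without a mouse the classes held 1 to 3, 1 to 3, 4 to 11 and 26 to 34 members (both, untreated only, N1-AcSpd only, neither), and the summed levels were 973 to 986, 1064 to 1087, 1013 to 1044 and 1162 to 1178 CPM. Ung turned in untreated cells without mouse 2 (-0.025), in a range up to 0.21. Ccne2 turned in untreated cells without progenitors of mouse 1 (-0.0036) or HFSCs of mouse 2 (-0.0046) or 4 (-0.0067), and in treated cells without mouse 3 (-0.0066), progenitors of mouse 2 (-0.0053) or HFSCs of mouse 3 (-0.011), in ranges up to 0.077 and 0.093. Member mean counts from 52.9 limit precision, although the widest SE was that of Blm (1.15 and 1.075).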
